A study of Mus musculus with 2 samples.

Results

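The collagen and laminin genes were taken as all genes of the count tables whose symbol was Col, a number, a and a number, or Lam, a, b or c and 1 digit. The rule used names only and no measured value. It gave 55 genes of 32285, of which 44 encode collagen chains and 11 encode laminin chains. Transcripts were counted as unique molecular identifiers (UMIs, tags that mark single captured molecules) in nuclei of the mouse cerebellum at postnatal day 1. The control library came from Cre-negative littermates, labelled Tox3f/f in the genotype field and as Tox3f/f or Tox3f/+ in the library name, and the other came from Nestin-cre;Tox3f/f mice, referred to as the library labelled cKO. The Nestin promoter drives Cre in neural precursors and so in their progeny, and every animal of both groups was described as carrying at least 1 Tox3 allele flanked by loxP sites.

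Collagen chains wind into triple helices. Fibril-forming chains build the cables of the meninges and vessel walls, collagen IV forms the sheet of the basement membrane together with laminins, and several other collagens stay on the cell surface as transmembrane proteins. A laminin is a cross of an alpha, a beta and a gamma chain that binds integrins and dystroglycan on cells. In the cerebellum, the end-feet of the radial glia rest on the basement membrane beneath the meninges, and granule neuron progenitors (GNPs) divide just below it in the external granule layer.

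Each group was 1 library made from 12 pooled, snap-frozen cerebella, so no difference had a replicate check and none was tested. Ratios are those of UMIs per 1000000 UMIs (CPM), the library labelled cKO over control, with an exact 95% interval that covers counting error only. Filtering left 4667 control nuclei and 6555 from the library labelled cKO, with medians of 3978 and 4025 UMIs. Nuclei with fewer than 1000 genes made up 22.1% and 10.9% of them, and 9 barcodes occurred in both libraries. Clusters were named from markers, with the ending -like, into 9 classes. The GNP-like class held 10.95% of control nuclei and 1.754% of those in the library labelled cKO. Tox3 itself, the targeted gene, had 2127 and 3571 UMIs and a ratio of 1.14 (1.08 to 1.2). Counts per gene do not show whether the deleted segment was transcribed, so the genotype was not checked by them. The study itself reported that quantitative RT-PCR found Tox3 almost fully deleted in mutant cerebella of this age. All markers on the GNP (11), granule neuron (9) and Purkinje cell (10) lists were detected in both libraries. In a whole-library value, fewer nuclei of a type and less RNA per nucleus cannot be told apart.

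All 55 genes were detected, with 40 to 5810 UMIs over both libraries, and 53 had at least 50. They held 15376 control UMIs and 24850 in the library labelled cKO. Their summed level was 750.3 and 823.7 CPM, a ratio of 1.10 (1.08 to 1.12). Without Col23a1, which had the most UMIs, the ratio was 1.06 (1.04 to 1.08). The 10 genes with the most UMIs held 59.6% of them, namely Col23a1, Col11a1, Col25a1, Col9a3, Lamc1, Lama3, Lama2, Col19a1, Col4a1 and Lamb1. Over the 55 genes, UMIs correlated with gene length (Spearman's rho 0.48) more than with exon length (0.16), as a description of these genes only. Levels of some genes are therefore also given per length, and values elsewhere are not scaled by length unless stated. Per 100 kb of gene, Col9a3 stood first with 225 CPM in control, and Col23a1, at 32.0 CPM, had rank 8. Per kb of exon, Col23a1 stood first with 16.4 CPM in control and Col9a3 second with 14.2.

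The collagen and laminin UMIs were not spread over the classes like other UMIs. Astroglia-like nuclei held 19.7% of them in control and 26.8% under the cKO label, while holding 7.01% and 9.84% of all UMIs. Granule neuron-like nuclei were the reverse, with 18.8% and 12.2% against 36.7% and 27.4%. By level, the 55 genes together reached 2102 and 2243 CPM in astroglia-like nuclei, 1256 and 1109 CPM in oligodendrocyte lineage-like nuclei and 899 and 698 CPM in GNP-like nuclei, and they were lowest in microglia-like nuclei, at 376 and 342 CPM, and in granule neuron-like nuclei, at 383 and 366 CPM. Without Col23a1 the level was 1341 and 1428 CPM in astroglia-like nuclei, 1188 and 1052 CPM in oligodendrocyte lineage-like nuclei and 869 and 635 CPM in GNP-like nuclei. The gated meningeal fibroblast-like nuclei, only 5 and 10 in number, reached 19526 and 10695 CPM with all 55 genes.

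**Figure D1:**
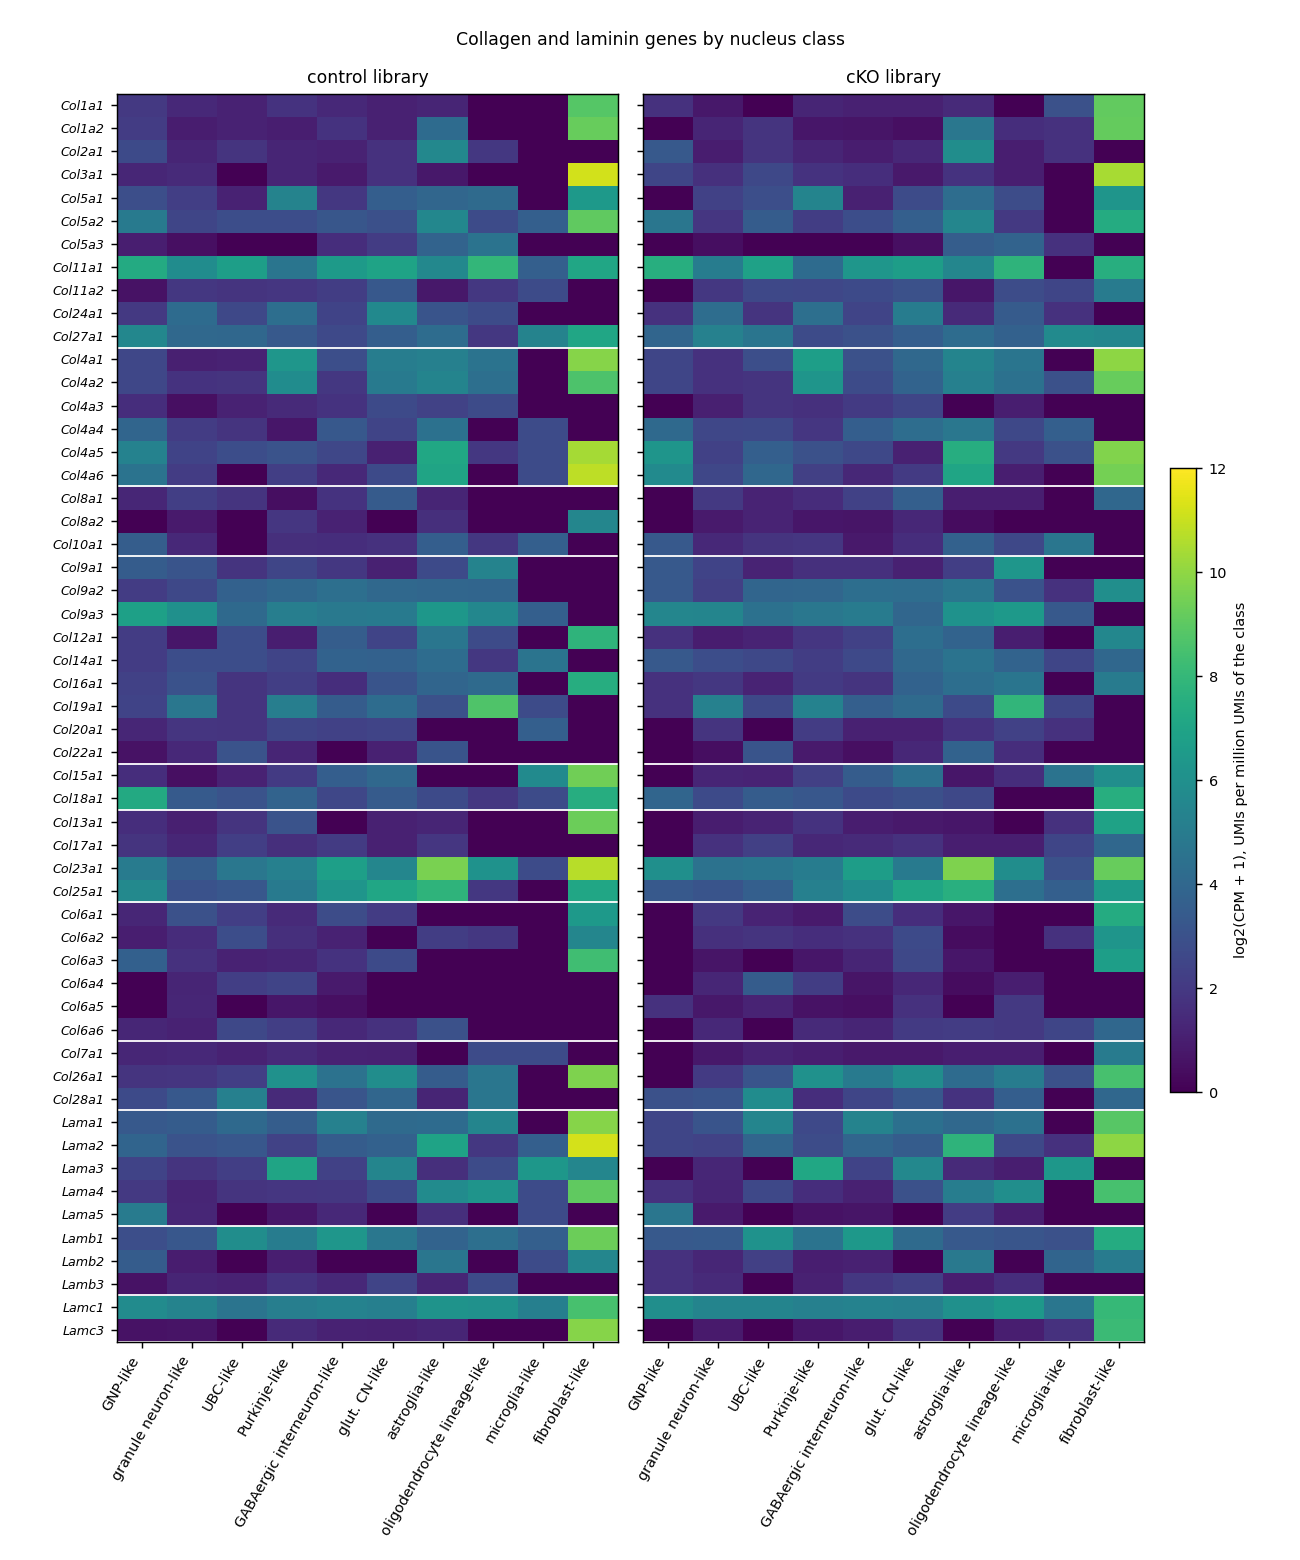
Level of all but 1 of the 55 genes (vertical axis, in family order with white lines between families) by nucleus class (horizontal axis), control at the left and the library labelled cKO at the right, as log2 of CPM plus 1. The fibroblast-like column rests on 5 and 10 nuclei, and Col23a1 in astroglia-like nuclei, at 760 and 815 CPM, is the highest value outside it.

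Chains passed a rule of enrichment in neural and glial classes as well as in the meningeal nuclei. Each class was compared with all other named nuclei of the same library, with a chain counted where its CPM was at least 2-fold higher in both libraries and it had at least 20 UMIs in the class. Beside each count stands the share of all genes with as many UMIs that passed. In astroglia-like nuclei 17 of 31 chains passed (all genes 14.7%), in oligodendrocyte lineage-like nuclei 6 of 15 (8.62%) and in GNP-like nuclei 6 of 18 (11.3%). Glutamatergic cerebellar nuclei neuron-like nuclei had 6 of 29 (6.48%), Purkinje-like nuclei 6 of 33 (7.65%), GABAergic interneuron-like nuclei 3 of 29 (3.05%), unipolar brush cell-like nuclei 2 of 9 (3%) and granule neuron-like nuclei 0 of 40 (3.16%). In the smallest classes a chain reaches 20 UMIs mainly by being high there, so nothing is read from the 17 of 17 in fibroblast-like (26.4%) and the 2 of 2 in microglia-like nuclei (31.3%). In other classes, too, some chains reached 20 UMIs only through their high level there. Examples were Lama5 in GNP-like nuclei (73 UMIs, 24.1-fold or more) and Col5a3 in oligodendrocyte lineage-like nuclei (21 UMIs, 9.69-fold or more). The counts of those classes are therefore not read against the shares of all genes either. Of the 41 chains with at least 50 UMIs in each library, 33 had the same leading class in both libraries, and in 22 of these that class was fibroblast-like. When the gated nuclei were left out, an alternative chosen after the values were seen, 30 of 41 had the same leading class, 10 of them astroglia-like and 6 Purkinje-like. The same count over all genes was not made, so these counts are not read as particular to the chains.

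Over the whole library, 3 of 53 chains were at least 2-fold lower in the library labelled cKO, where 1.44% of all 17602 genes with at least 50 UMIs were, and 0 were at least 2-fold higher, where 1.03% of all genes were. The 3 were Col18a1, Lama5 and Col6a3. The median log2 ratio was 0.15 over the 53 chains and -0.02 over all genes. The interval lay below 1 for 8 chains (15.1%), where it did for 22.5% of all genes, above 1 for 19 (35.8%), where it did for 18.6%, and held 1 for 26. Intervals of counts are narrow for genes with many UMIs, so these shares also move with depth. Just outside the 2-fold limit, Col13a1, a transmembrane collagen, had a ratio of 0.514 (0.363 to 0.723) on 82 and 62 UMIs. At the other end, Col4a1 and Lama2 had the highest ratios, both 1.60.

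**Figure D2:**
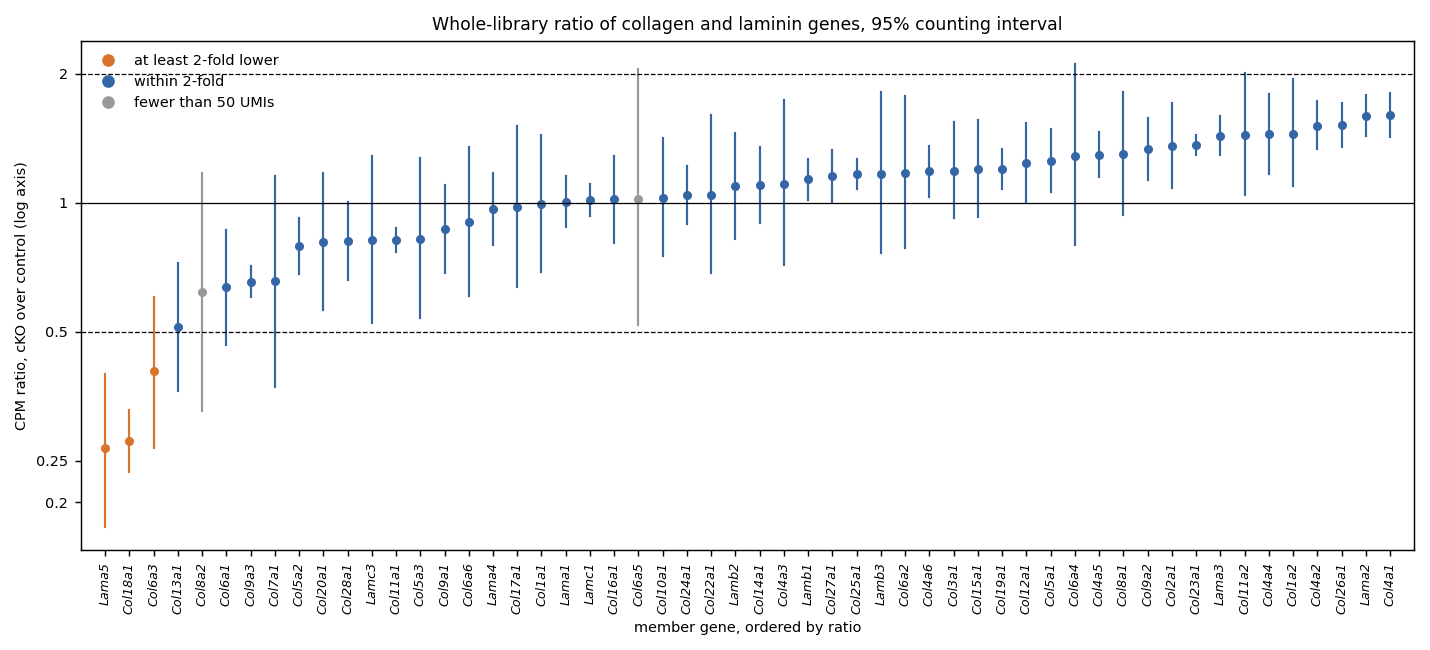
CPM ratio of all but 1 of the 55 genes over the whole library (points, log axis) with exact 95% counting intervals (bars), ordered from the lowest. Orange marks the 3 chains that were at least 2-fold lower, Lama5, Col18a1 and Col6a3, and grey the 2 with fewer than 50 UMIs.

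Collagen XVIII is a basement membrane collagen that carries heparan sulfate chains, and its C-terminal fragment is endostatin. Col18a1 (ENSMUSG00000001435, chromosome 10, 77052178 to 77166548, minus strand, GRCm38) had 498 UMIs in control, or 24.3 CPM (22.2 to 26.5), and 204 under the cKO label, or 6.76 CPM (5.87 to 7.76). The ratio was 0.278 (0.235 to 0.328). The study had already reported, from the same libraries, a strong drop in cells expressing Col18a1 in mutants. This ratio is therefore not independent of that report. Of the control UMIs, 314 (63.1%) came from GNP-like nuclei, against 6 (2.94%) in the library labelled cKO, where Purkinje-like nuclei supplied the largest part, 51 of 204. In GNP-like nuclei the level was 154 CPM (137 to 172) in control against 13.9 CPM (5.11 to 30.3) under the cKO label. Over the 9 classes named from clusters alone, with their shares held at those of control, the ratio was 0.281 (0.222 to 0.355). This interval is approximate, from Poisson errors on the log scale.

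Col18a1 was lower in both GNP-like clusters. In the dividing cluster, led by Top2a and Mki67, control had 119 UMIs and 97.2 CPM and the library labelled cKO 6 UMIs and 19 CPM, a ratio of 0.195 (0.0702 to 0.437). In the other, led by Gli2 and Ntn1, Col18a1 had 195 UMIs and 239 CPM in 238 control nuclei and 0 UMIs in 40 nuclei of the other library. Taking 3 counts in place of 0, the level was at least 9.15-fold lower, and the upper limit of the ratio was 0.136. Before thinning, 36.4% of control GNP-like nuclei (186 of 511) had a Col18a1 UMI and 3.48% (4 of 115) in the library labelled cKO, at median depths of 3716 and 3494 UMIs. With each nucleus thinned to 1000 UMIs the shares were 13.5% (10.7 to 16.8) and 0.870% (0.0220 to 4.75). In microglia-like nuclei, which should lack the transcript, 1.89% of control nuclei (1 of 53) had 1 and 0 of 152 in the library labelled cKO, for which 3 counts of 152 would be 1.97% and the Clopper-Pearson upper limit is 2.40%, at median depths of 2923 and 2541 UMIs. The share among cKO-labelled GNP-like nuclei cannot be told from that background. The low-depth clusters had 27.5 CPM (19 UMIs) in control and 6.47 CPM (3 UMIs) under the cKO label, and the part of free RNA in the result was not tested.

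Outside the progenitors, Col18a1 stood at 180 and 182 CPM on 4 and 12 UMIs in the 5 and 10 fibroblast-like nuclei. In granule neuron-like nuclei it had 71 and 45 UMIs, or 9.43 and 5.44 CPM, with a ratio of 0.577 (0.388 to 0.850). Purkinje-like nuclei had 12.9 and 8.51 CPM, with a ratio of 0.659 (0.425 to 1.03). In the remaining classes neither library had more than 28 UMIs. Slc19a1 overlaps Col18a1 on the other strand. The counting by strand was not given in the sources used here, and whether reads of Slc19a1 entered the Col18a1 counts was not checked. The other endostatin-type collagen, Col15a1, had 94 and 166 UMIs and a ratio of 1.2 (0.926 to 1.56). Among the classes named from clusters it was highest in microglia-like nuclei, at 52.1 and 23.0 CPM on 9 and 10 UMIs.

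Lama5 (ENSMUSG00000015647, chromosome 2, 180176373 to 180225859, minus strand) encodes laminin alpha5, an alpha chain of mature basement membranes. It had 89 UMIs in control, or 4.34 CPM, and 35 under the cKO label, or 1.16 CPM, a ratio of 0.267 (0.175 to 0.399). Lama5 had the largest enrichment in progenitors, with a CPM in GNP-like nuclei that was 24.1-fold that of all other named nuclei in control and 29.0-fold under the cKO label. Its level within these nuclei was 30.4 CPM on 62 UMIs and 25.5 CPM on 11 UMIs, with a ratio of 0.839 (0.398 to 1.61). By cluster it had 23.7 and 15.8 CPM in the dividing cluster and 40.4 and 52.2 CPM in the cluster led by Gli2 and Ntn1. At fixed class shares the ratio was 0.801 (0.477 to 1.35). Over the whole library each of the 11 GNP markers had a lower level under the cKO label, and their sum was 1438 and 939 CPM. Within GNP-like nuclei the list had 4390 and 5004 CPM, with 2 of 11 lower. The clusters were named from these markers, so nothing is read from that level. With 62 and 11 UMIs, a difference in the Lama5 level within GNP-like nuclei was not detectable at this depth. The contrast with Col18a1 was not tested.

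The windows before the starts of Col18a1 and Lama5 are shown because both passed the enrichment rule in GNP-like nuclei and were called lower over the whole library. Col18a1 passed under the cKO label at 2.16-fold on only 6 UMIs, and 314 of its 320 UMIs in the class came from control. Its enrichment therefore rests on control. The windows of the neighbouring pair Col4a5 and Col4a6, described further on, are shown too. Each window shown is the 250 bases before an annotated start in RefSeq (GRCm38.p6), written 5′ to 3′ on the strand of the gene. Capitals mark the E-box CANNTG, the class of site that basic helix-loop-helix factors such as Atoh1 bind, and the GC-box GGGCGG, whose reverse complement is CCGCCC.
Col18a1, first start, chr10:77166531-77166780, minus strand: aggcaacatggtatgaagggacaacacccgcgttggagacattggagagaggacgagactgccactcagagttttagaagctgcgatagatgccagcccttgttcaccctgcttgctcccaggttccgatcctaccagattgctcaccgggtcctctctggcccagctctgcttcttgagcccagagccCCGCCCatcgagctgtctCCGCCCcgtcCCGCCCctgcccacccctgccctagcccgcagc
Col18a1, second start, chr10:77113706-77113955, minus strand: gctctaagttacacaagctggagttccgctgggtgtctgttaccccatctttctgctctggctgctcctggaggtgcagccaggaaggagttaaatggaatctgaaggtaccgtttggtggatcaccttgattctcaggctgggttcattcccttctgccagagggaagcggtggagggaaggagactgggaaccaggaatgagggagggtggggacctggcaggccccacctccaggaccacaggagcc
Lama5, chr2:180225860-180226109, minus strand: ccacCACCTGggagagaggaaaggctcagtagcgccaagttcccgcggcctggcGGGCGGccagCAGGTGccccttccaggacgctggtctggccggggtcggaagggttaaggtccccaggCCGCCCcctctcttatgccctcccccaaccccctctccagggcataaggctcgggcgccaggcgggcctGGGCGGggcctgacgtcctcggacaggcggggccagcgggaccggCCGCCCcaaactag
Col4a5, chrX:141475169-141475418, plus strand: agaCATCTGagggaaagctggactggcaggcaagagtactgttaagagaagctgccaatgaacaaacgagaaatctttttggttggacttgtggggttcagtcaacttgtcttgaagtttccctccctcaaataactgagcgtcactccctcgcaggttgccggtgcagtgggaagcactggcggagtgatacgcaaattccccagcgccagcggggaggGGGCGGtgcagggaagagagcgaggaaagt
Col4a6, chrX:141474077-141474326, minus strand: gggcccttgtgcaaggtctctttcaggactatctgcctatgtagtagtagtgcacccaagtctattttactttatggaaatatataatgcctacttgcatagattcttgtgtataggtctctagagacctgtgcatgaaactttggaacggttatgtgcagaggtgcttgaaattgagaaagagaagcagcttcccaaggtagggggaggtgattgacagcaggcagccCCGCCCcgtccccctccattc
The Lama5 window held 2 E-boxes and 4 GC-boxes, the first Col18a1 window 0 and 3, the second 0 and 0, the Col4a5 window 1 and 1 and the Col4a6 window 0 and 1. The motifs were searched on both strands, and no E-box overlapped a GC-box in these windows. Among 32851 windows of the same length over all genes, 66.2% held an E-box and 32.7% a GC-box. Among 44 windows of the 40 collagen and laminin genes with one, 56.8% held an E-box and 54.5% a GC-box. None of the 5 windows shown held CAGCTG, which 13.0% of all windows held. A match is a description of letters, and UMIs do not show which Col18a1 start was used. Sequence outside the windows was not searched. The study reported an E-box in a Col18a1 enhancer with Tox3 and Atoh1 binding peaks. That enhancer strongly drove a luciferase reporter only when both proteins were expressed together.

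Col6a3 (chromosome 1, 90765923 to 90843971, minus strand) encodes the large chain of collagen VI, a beaded filament of the pericellular matrix. It had 69 and 41 UMIs, or 3.37 and 1.36 CPM, a ratio of 0.404 (0.267 to 0.603). GNP-like nuclei held 24 of the control UMIs and 0 in the library labelled cKO, at least 1.69-fold lower if 3 counts stand for 0, with an upper limit of the ratio of 0.786. At fixed class shares the ratio was 0.270 (0.170 to 0.426), an interval that gives the count of 0 no error. Of the other collagen VI chains, Col6a1 had 91 and 85 UMIs and a ratio of 0.634 (0.466 to 0.862) and Col6a2 had 40 and 69 UMIs and 1.17 (0.783 to 1.78). Col6a4, Col6a5 and Col6a6 had 28 and 53, 16 and 24, and 46 and 61 UMIs, and each interval held 1.

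**Figure D3:**
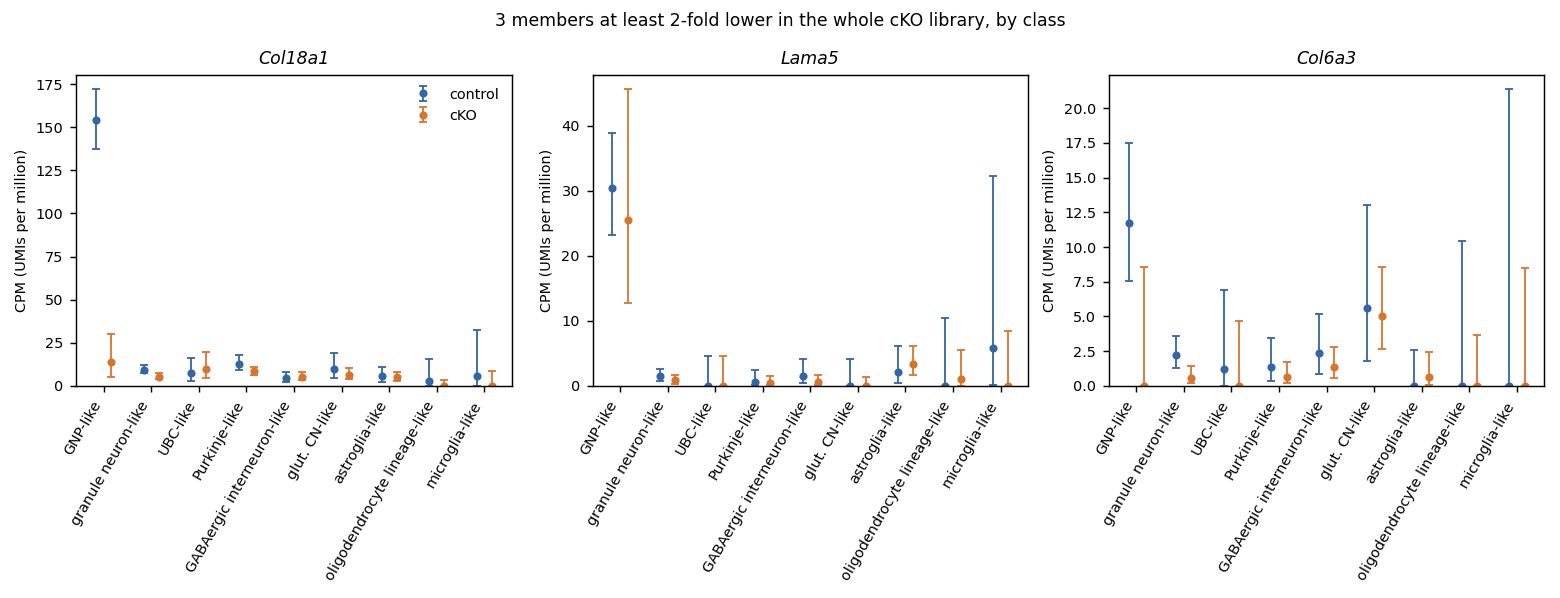
CPM (points) with exact 95% Poisson intervals (bars) of Col18a1, Lama5 and Col6a3 in 9 classes, control in blue and the library labelled cKO in orange. Col18a1 differs between the libraries in GNP-like nuclei, at 154 and 13.9 CPM, while the intervals of Lama5 there overlap, at 30.4 and 25.5 CPM.

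**Figure D4:**
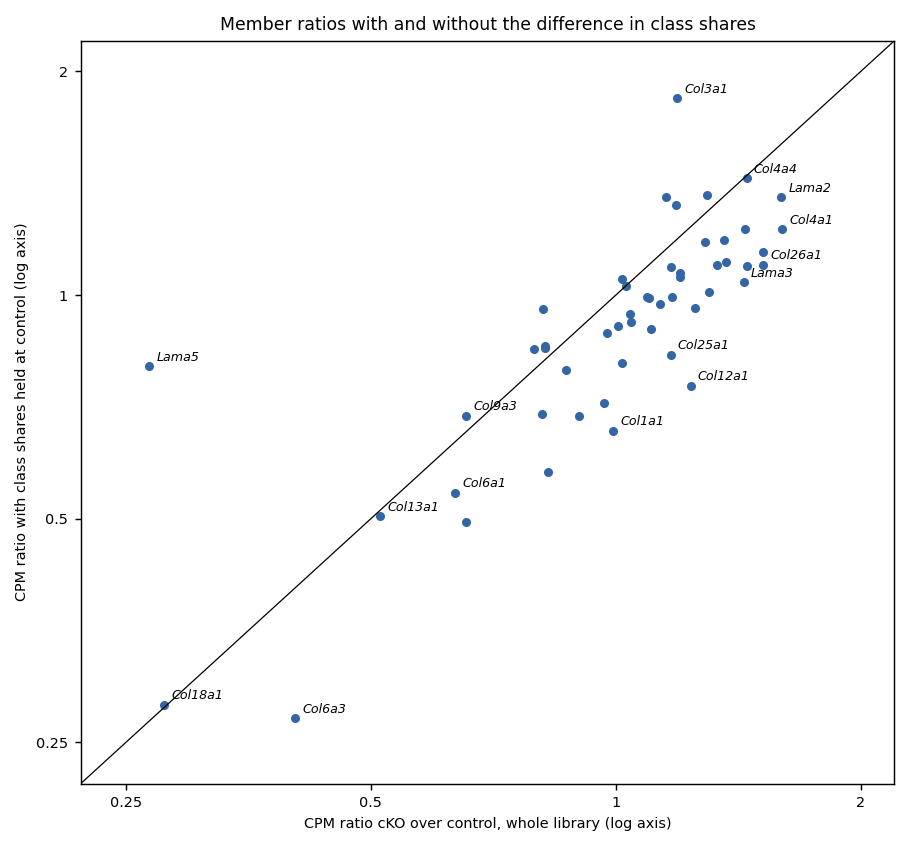
Whole-library ratio of the chains with at least 50 UMIs, all but 1 shown (horizontal, log axis) against the ratio with class shares held at those of control (vertical, log axis), with the line of equal values. The vertical ratio used only the 9 classes named from clusters. Col18a1 lies on the line at 0.278 and 0.281, and Lama5 lies far above it at 0.267 and 0.801.

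Collagen IV chains formed the family with the highest ratio, 1.40 (1.32 to 1.49) on 1680 and 3468 UMIs. The 6 genes lie as 3 head-to-head pairs. Col4a1 and Col4a2, whose chains make the common network of basement membranes, overlap by 22 bases at their starts on chromosome 8. The few fibroblast-like nuclei had the highest level of both, at 899.8 and 987 CPM for Col4a1. Among the classes named from clusters, both led in Purkinje-like nuclei, Col4a1 with 232 and 624 UMIs (78.8 and 104 CPM) and Col4a2 with 165 and 448 UMIs (56.1 and 74.7 CPM), and their ratios there were 1.32 (1.13 to 1.54) and 1.33 (1.11 to 1.60). Within that class Col4a1 stood at 125 and 171 CPM in the cluster led by Car8 and Cntn5 and at 10.9 and 26.0 CPM in the cluster with Ebf2 among its leading genes, and Col4a2 at 87.6 and 130 CPM against 10.0 and 9.76 CPM. Both were also seen in astroglia-like nuclei, at 36.2 and 41.8 CPM for Col4a1. In glutamatergic cerebellar nuclei neuron-like nuclei both were at least 2-fold lower in the library labelled cKO, Col4a1 on 30 and 40 UMIs with a ratio of 0.461 (0.280 to 0.766) and Col4a2 on 26 and 34 UMIs with 0.452 (0.263 to 0.785). There 2 of 18 chains were lower, where 0.942% of all genes tested in that class were, and Col4a2 passed the count minimum only through control. At fixed class shares the ratios were 1.23 for Col4a1 and 1.14 for Col4a2.

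Col4a5 and Col4a6, on opposite strands of chromosome X with starts 1309 bases apart, stood at 1350 and 836 CPM and at 1800 and 714 CPM in fibroblast-like nuclei. Among the classes named from clusters both led in astroglia-like nuclei. Col4a5 had 203 and 527 UMIs there, or 141 and 178 CPM, with a ratio of 1.26 (1.07 to 1.49), and Col4a6 had 182 and 391 UMIs, or 127 and 132 CPM, with 1.04 (0.871 to 1.25). In GNP-like nuclei both were higher in the library labelled cKO, Col4a5 with 39.2 and 76.5 CPM on 80 and 33 UMIs (ratio 1.95, 1.26 to 2.96) and Col4a6 with 23.0 and 53.3 CPM on 47 and 23 UMIs (2.31, 1.34 to 3.89). Col4a3 and Col4a4, with starts 72 bases apart on chromosome 1, had 35 and 57 UMIs and 129 and 275 UMIs. Col4a4 had a whole-library ratio of 1.45 (1.17 to 1.80). Its highest level, like those of Col4a5 and Col4a6 among these classes, was in astroglia-like nuclei, at 21.6 and 26.0 CPM. Over the 23 clusters other than the low-depth ones, with both libraries summed, Pearson's r of log2 CPM plus 1 was 0.89 for Col4a1 and Col4a2, 0.85 for Col4a5 and Col4a6 and 0.17 for Col4a3 and Col4a4. The clusters share libraries, so these are descriptions, and no other collagen or laminin gene had a higher r with Col4a1 than Col4a2, or with Col4a5 than Col4a6.

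**Figure D5:**
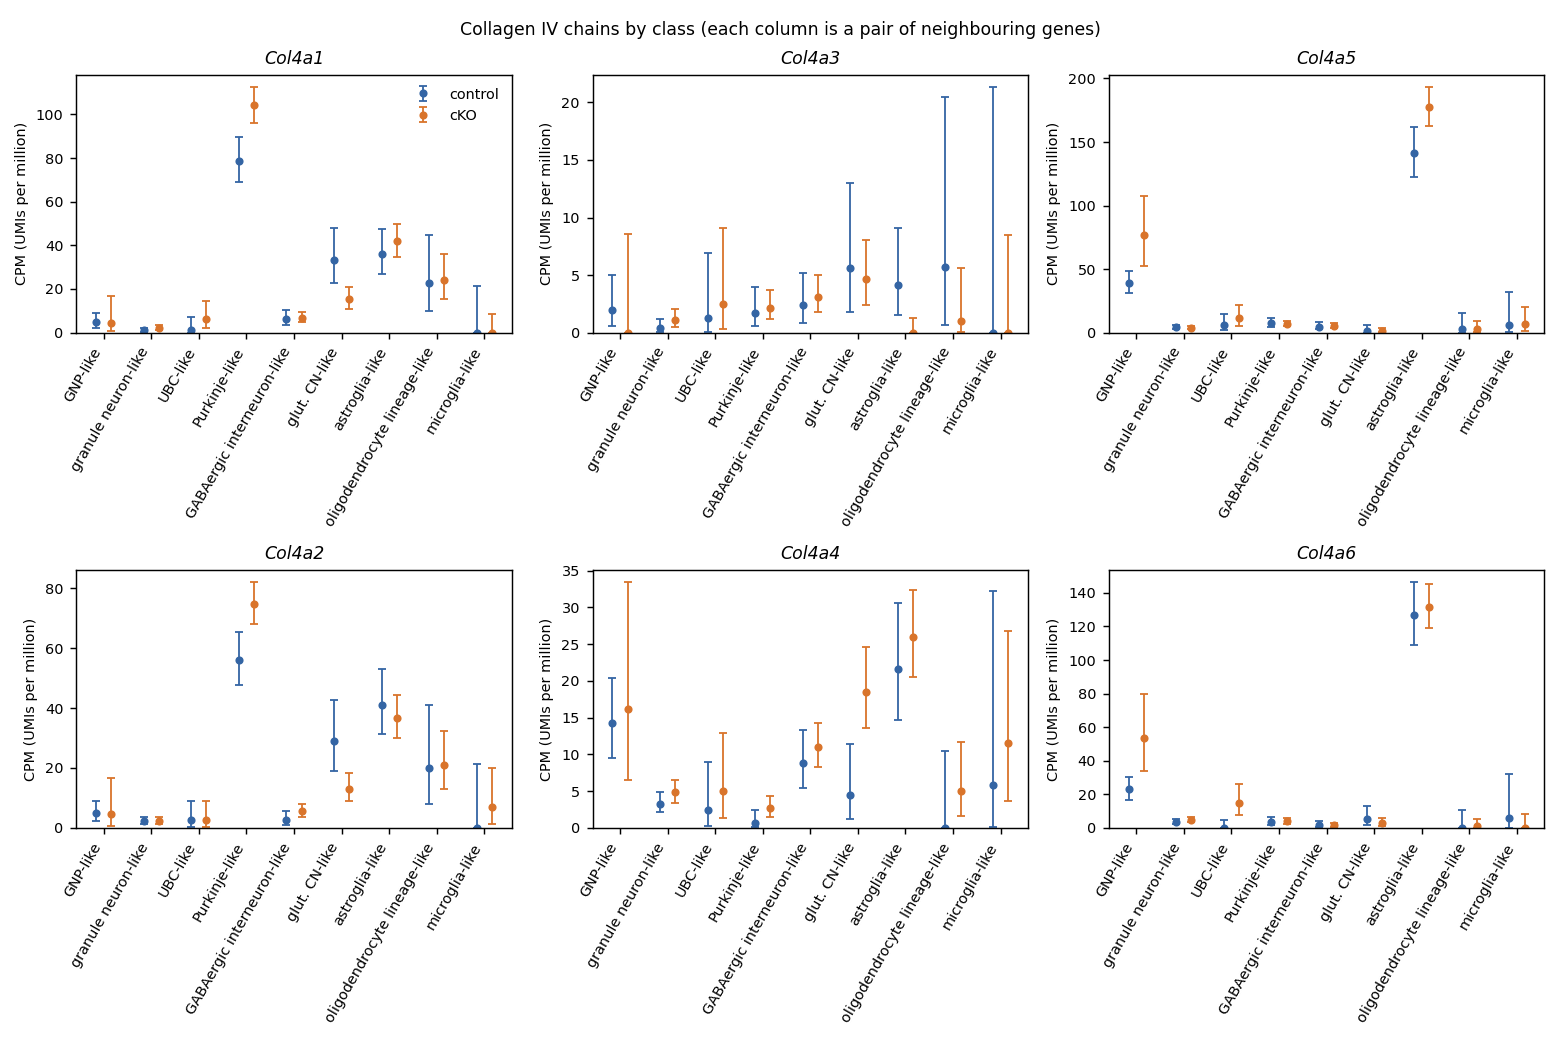
CPM (points) with exact 95% Poisson intervals (bars) of the 6 collagen IV chains in 9 classes, control in blue and the library labelled cKO in orange, each column a head-to-head gene pair. Of the classes plotted, Col4a1 and Col4a2 peak in Purkinje-like nuclei, at 78.8 and 104 CPM and at 56.1 and 74.7 CPM, and Col4a5 and Col4a6 in astroglia-like nuclei.

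The fibril-forming chains had 3289 and 4616 UMIs together and a ratio of 0.953 (0.911 to 0.997). Col1a1, Col1a2 and Col3a1, the chains of collagens I and III, had few UMIs, namely 52 and 76, 73 and 156, and 96 and 168. Their genes are short. Per 100 kb of gene they stood at 15.1, 9.70 and 12.3 CPM in control, with ranks 13, 24 and 19, against ranks 43, 37 and 30 by CPM. The fibroblast-like nuclei held 51 and 90 of the Col3a1 UMIs, at 2295 and 1367 CPM, and 10 and 36 of those of Col1a1. Col11a1, the most counted of the group, was seen in all neuronal classes. It had 1706 and 2057 UMIs, 83.2 and 68.2 CPM and a ratio of 0.819 (0.768 to 0.874), with the highest level among the named classes in oligodendrocyte lineage-like nuclei at 247 and 222 CPM, followed by GNP-like nuclei at 160 and 186 CPM. Col5a1 had 2 and 5 UMIs in the fibroblast-like nuclei, or 89.98 and 75.96 CPM, and among the classes named from clusters led in Purkinje-like nuclei, at 40.1 and 42 CPM, and there stood higher in the cluster with Ebf2 among its leading genes (67.7 and 60.7 CPM) than in the other (21.2 and 26.0 CPM), the reverse of Col4a1. Col2a1, the cartilage chain, was found mostly in astroglia-like nuclei, at 48.0 and 58.6 CPM.

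Fibril-associated collagens sit on the surface of fibrils, and Col9a3 was the most counted of them, with 1125 and 1084 UMIs, 54.9 and 35.9 CPM and a ratio of 0.655 (0.602 to 0.712). It stood at 110 and 44.1 CPM in GNP-like nuclei (225 and 19 UMIs, ratio 0.399, 0.236 to 0.638), at 64.6 and 42.6 CPM in granule neuron-like nuclei and at 80.7 and 67.4 CPM in astroglia-like nuclei. Col9a3 overlaps Tcfl5 on the other strand, with the same limit as for Col18a1. Col19a1 stood highest in oligodendrocyte lineage-like nuclei, at 420 and 237 CPM on 148 and 236 UMIs, with a ratio of 0.565 (0.458 to 0.698), and in granule neuron-like nuclei at 25.8 and 38.0 CPM, with 1.47 (1.23 to 1.77).

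Transmembrane collagens, which carry their triple helix outside the cell, had a ratio of 1.27 (1.22 to 1.33). Col23a1 made up most of it, with 1930 and 3880 UMIs, 94.2 and 129 CPM and a ratio of 1.37 (1.29 to 1.44). Astroglia-like nuclei held 1093 and 2418 of its UMIs, at 760 and 815 CPM, which was 20.5-fold and 18-fold the level of other named nuclei. Within that class the ratio was 1.07 (0.997 to 1.15), and at fixed class shares the ratio was 1.11 (1.04 to 1.18). In granule neuron-like nuclei Col23a1 was low but higher in the library labelled cKO, with 77 and 181 UMIs, 10.2 and 21.9 CPM and a ratio of 2.14 (1.63 to 2.83). The ratio was between 2.12 and 2.29 in all 4 clusters of the class. Col25a1, whose shed ectodomain is known from amyloid plaques, stood at 220 and 186 CPM in astroglia-like nuclei and at 135 and 132 CPM in glutamatergic cerebellar nuclei neuron-like nuclei, and at 49.0 and 9.27 CPM on 100 and 4 UMIs in GNP-like nuclei, with a ratio of 0.189 (0.0506 to 0.5).

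Laminin chains had different leading classes, given here without the gated nuclei. Lamc1, the gamma chain of most laminins, was seen in all 9 classes at 23.7 to 83.3 CPM, with a whole-library ratio of 1.02 (0.933 to 1.11) on 871 and 1304 UMIs. Lama3, the alpha chain of epithelial anchoring laminins, led in Purkinje-like nuclei, at 127 and 139 CPM on 373 and 833 UMIs, 20.2-fold and 15.3-fold the level of other named nuclei. Lama2, whose loss causes a congenital muscular dystrophy, led in astroglia-like nuclei, at 125 and 223 CPM on 179 and 661 UMIs, and its ratio there was 1.79 (1.51 to 2.12). By astroglia-like cluster that ratio was 2.02 (1.65 to 2.48) in the largest, 1.73 (1.15 to 2.69) in the one with Pax3 among its leading genes and 0.757 (0.465 to 1.25) in the third. Lama4, the alpha chain of vessel laminins, stood at 55.0 and 33.4 CPM in astroglia-like nuclei (0.607, 0.447 to 0.827) and at 73.7 and 60.2 CPM in oligodendrocyte lineage-like nuclei. Lama1, the alpha chain of the early embryo, had 352 and 521 UMIs and a ratio of 1.01 (0.877 to 1.15), and its leading class differed between the libraries. It stood at 42.5 and 21.1 CPM in oligodendrocyte lineage-like nuclei, which led in control, at 38.3 and 39.7 CPM in GABAergic interneuron-like nuclei and at 16.2 and 42.9 CPM in unipolar brush cell-like nuclei, where 13 and 34 UMIs gave a ratio of 2.65 (1.36 to 5.47).

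Of the beta chains, again without the gated nuclei, Lamb1 led in GABAergic interneuron-like nuclei, at 78.6 and 83.5 CPM on 197 and 433 UMIs, and was next highest in unipolar brush cell-like nuclei, at 58.5 and 68.1 CPM. Lamb2 led in astroglia-like nuclei, at 25 and 28.3 CPM. Lamb3 had 36 and 62 UMIs, and Lamc3 had 39 and 47. Of those of Lamc3, 20 and 19 came from the 5 and 10 fibroblast-like nuclei. The ratios of the alpha chains together and of the beta chains together were 1.27 (1.19 to 1.35) and 1.13 (1.02 to 1.25).

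The granule lineage was examined next, joining GNP-like and granule neuron-like nuclei, since the study deleted Tox3 in the neural lineage and followed this one. Here 7 of 28 chains were at least 2-fold lower in the library labelled cKO, where 4.31% of 13879 genes were, and 0 of 28 were higher, where 0.735% of genes were. The 7 were Col18a1 (385 and 51 UMIs, ratio 0.146, 0.107 to 0.196), Lama5 (73 and 18 UMIs, 0.271, 0.152 to 0.459), Col5a2 (95 and 34 UMIs, 0.394, 0.258 to 0.588), Col16a1 (61 and 25 UMIs, 0.451, 0.271 to 0.729), Lama2 (84 and 36 UMIs, 0.471, 0.310 to 0.704), Col25a1 (154 and 67 UMIs, 0.479, 0.354 to 0.642) and Col6a1 (55 and 25 UMIs, 0.5, 0.299 to 0.816). Lama5 passed the count minimum here only through control. With nuclei gated one by one on markers in place of clusters, the calls were Col18a1, Lama5 and Col6a1 lower, with 3.23% of all genes lower, and Col5a2, Col16a1, Lama2 and Col25a1 were not called. The median log2 ratio of the 28 chains was -0.18 and that of all genes -0.08. The joined lineage mixes its classes, and GNP-like nuclei were 511 of 2039 in control and 115 of 2020 under the cKO label.

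Within GNP-like nuclei alone, 4 of 11 chains were at least 2-fold lower (Col18a1, Col25a1, Col27a1 and Col9a3), against 6.52% of genes, and 2 were higher (Col23a1 and Col4a6), against 2.95%. Of the 4, all but Col9a3 would fall short of 50 UMIs if both libraries had the level of the library labelled cKO, so their count is not read against that share. In granule neuron-like nuclei 2 of 25 were lower (Col16a1 and Col6a1), against 0.874%, and 2 were higher (Col27a1 and Col23a1), against 0.555%. Both lower chains passed the minimum only through control. Col27a1, a fibril-forming chain, was lower in one class and higher in the other, a contrast that was not tested, with 45.6 and 13.9 CPM on 93 and 6 UMIs in GNP-like nuclei (0.305, 0.109 to 0.690) and 15.7 and 38.0 CPM on 118 and 314 UMIs in granule neuron-like nuclei (2.42, 1.95 to 3.02). In the latter it was found in the cluster led by Slit3 and Cadps2 (ratio 2.25) and in the cluster led by Kcnip4 (2.44), and at most 4 UMIs per library were counted in the others. Of the 52 and 25 Col6a1 UMIs of the class, 45 and 14 came from the cluster led by Slit3 and Cadps2.

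In the other classes calls were few. No chain was called in Purkinje-like nuclei (0 of 19, where 1.1% of genes were lower and 0.321% higher), astroglia-like nuclei (0 of 26, 0.564% and 0.949%), oligodendrocyte lineage-like nuclei (0 of 7, 1.13% and 2.38%), unipolar brush cell-like nuclei (0 of 4, 0.384% and 0.677%) or low-depth clusters (0 of 3, 1.42% and 0.977%). Microglia-like nuclei had 0 chains with enough UMIs, where 1.08% of genes were lower and 1.96% higher. In GABAergic interneuron-like nuclei 1 of 16 was lower, Col14a1 on 32 and 27 UMIs (0.408, 0.235 to 0.703), against 0.347% of genes, and 0 were higher, against 0.338%. In glutamatergic cerebellar nuclei neuron-like nuclei 2 of 18 were higher, against 1.62% of genes, namely Col4a4 (4 and 48 UMIs, 4.15, 1.52 to 15.8) and Col12a1 (4 and 49 UMIs, 4.24, 1.55 to 16.2). These nuclei numbered 76 and 263. Col4a4 and Col12a1 reached 50 UMIs only through the library labelled cKO and Col14a1 only through control, so nothing is read from these counts. In an unnamed cluster led by Pax3 (98 and 251 nuclei) 0 of 6 chains were lower, against 0.678% of genes, and 2 were higher, against 1.19%, namely Lama2 (59.6 and 132 CPM) and Col4a5 (24.3 and 48.9 CPM), which passed the minimum only through the library labelled cKO.

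Other genes of the pathway were counted from lists of enzymes, matrix components and receptors, beside 1.44% of all genes lower and 1.03% higher. Of 28 measured genes that modify, fold or process collagens, 2 were at least 2-fold lower and 0 higher, with a median log2 ratio of 0.13. The 2 were Adamts14, a procollagen N-proteinase (121 and 60 UMIs, 0.337, 0.243 to 0.463), and Loxl1, a cross-linking lysyl oxidase (126 and 55 UMIs, 0.297, 0.212 to 0.410). Of 16 other matrix components 1 was lower, Fbln2, a fibulin (307 and 83 UMIs, 0.184, 0.142 to 0.235), and 0 were higher, and of 17 collagen and laminin receptors 0 were called in either direction, with a median of 0.02. Within GNP-like nuclei these 3 differed. Adamts14 had 74 and 19 UMIs there and a ratio of 1.21 (0.693 to 2.03). Loxl1 had 65 and 0 UMIs, at least 4.58-fold lower if 3 counts stand for 0, with an upper limit of 0.276. Fbln2 had 186 and 1 UMIs and a ratio of 0.0254 (0.000640 to 0.143).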

How the data were processed

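Single-nucleus RNA-seq was performed on 2 libraries, 1 per group, each from 12 pooled cerebella. The authors, per the file headers, counted reads with Cell Ranger 7.0.1 on the 10x Genomics mouse reference for GRCm38 (mm10). The deposited values are raw counts of UMIs per gene and nucleus, without normalisation. Whether intronic reads or strand were counted is not given in the sources used here. Free RNA was not corrected, since SoupX, named in the study's methods, needs empty droplets that were not used here.

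Nuclei with over 25% mitochondrial UMIs and the highest Scrublet scores (0.8% per 1000 barcodes, scanpy 1.11.5) were removed, which took 1 and 189 of 4857 control barcodes and 5 and 386 of 6946 barcodes of the library labelled cKO. The libraries were integrated and clustered with Seurat 5.3.0 in R 4.3.3 (3000 variable features, 30 integration and 20 clustering dimensions, resolution 0.8), with the collagens, laminins and pathway genes kept out of the features. The 25 clusters were scored on marker lists by a rule set after the clusters were seen. It asked for at least 3 markers in 10% of nuclei at 2-fold or more and a mean log2 fold of at least 1. Of the 25 clusters, 2 low-depth clusters and 3 others stayed unnamed. The cluster led by Cntn5 and Zfhx3 had a mean of only 0.843. The cluster led by Pax3 passed 7 of 7 GABAergic interneuron markers, but its leading genes included those of another list. The remaining cluster passed 4 of 5 glutamatergic cerebellar nuclei neuron markers but was led by Zfhx3, which is on no list. No cluster reached the vascular or meningeal lists, so 21 nuclei were gated on at least 4 distinct markers and 1 marker UMI per 1000, a limit set after marker counts were seen. The class names are rebuilt and may differ from the study's.

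The genes and lists were chosen with earlier results of these data known. CPM were computed from summed UMIs in Python 3.11.15 (numpy 2.4.6, scipy 1.17.1, pandas 2.3.3). With 1 library per group there was no test. CPM carry exact Poisson intervals, shares Clopper-Pearson intervals and ratios exact conditional binomial intervals, all at 95%. The ratio, its interval and the 2-fold call were tested on simulated Poisson counts, and the other intervals were not. A gene was called at 2-fold or more with at least 50 UMIs over both libraries, and a fold against 0 used 3 counts per library sum. A called chain was said to pass this minimum only through 1 library where the lower CPM in both libraries would give fewer than 50 UMIs. Ratios at fixed class shares used only the 9 classes named from clusters, without the gated, unnamed and low-depth nuclei. They were weighted by the control shares, with approximate intervals in place of the exact ones planned. Named genes were those called over the whole library or in the granule lineage, the 10 with the most UMIs, up to 3 leading genes per class, the laminins and the chains of collagens I, III, IV, VI and XVIII. Genes outside this rule, such as Col13a1, Col14a1 and Col12a1, were named after their values were seen. Alternatives covered scaling, doublets, depth, thinning to 1000 UMIs, count minimums, the fold and class definitions. Promoter windows came from a RefSeq table (GRCm38.p6) that matched 40 of the 55 genes. The values of 1 of the 55 genes are not reported here, and the sums and counts include it.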

Additional observations from a re-analysis of the deposited data

Results flagged for a closer look

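Chains are given here whose ratio lay 1.5-fold or more below 1 in one class and 1.5-fold or more above 1 in another, with counting intervals that left out 1 in each. With 1 library per group the difference between the classes was not tested in any of them, and many chain and class pairs were looked at. Col27a1 had a ratio of 0.305 (0.109 to 0.690) in GNP-like nuclei, on 93 and 6 UMIs, and 2.42 (1.95 to 3.02) in granule neuron-like nuclei. Col9a3 had 0.399 (0.236 to 0.638) in GNP-like, 0.659 (0.573 to 0.758) in granule neuron-like and 0.505 (0.299 to 0.867) in glutamatergic cerebellar nuclei neuron-like nuclei, but 1.99 (1.16 to 3.63) in oligodendrocyte lineage-like nuclei. Its partner chain Col9a1 had 0.575 (0.368 to 0.888) in granule neuron-like and 1.97 (1.11 to 3.77) in oligodendrocyte lineage-like nuclei. Col23a1 had 2.06 (1.26 to 3.29) in GNP-like and 2.14 (1.63 to 2.83) in granule neuron-like nuclei, against 0.648 (0.436 to 0.977) in glutamatergic cerebellar nuclei neuron-like nuclei. Lama2 had 0.553 (0.350 to 0.862) in granule neuron-like and 1.79 (1.51 to 2.12) in astroglia-like nuclei. Col12a1 had 0.525 (0.325 to 0.850) in astroglia-like nuclei and 4.24 (1.55 to 16.2) in glutamatergic cerebellar nuclei neuron-like nuclei, where control had 4 UMIs.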

How the results depend on the processing

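No paired analysis was possible because each group had 1 library, and for the same reason no replicate could be left out. No result reversed. With each nucleus thinned to 1000 UMIs, the summed ratio was 1.14, the Col18a1 ratio 0.205 and its ratio at fixed shares 0.189, and 1 chain (Col18a1) was called lower over the whole library (of 32 tested) and in the granule lineage (of 10), while 12 of 16 chains had the same leading class in both libraries. Of all genes 1.17% and 3.27% were then lower. The count of lower chains in the granule lineage was 11 of 48 with a minimum of 20 UMIs (5.78% of all genes), 12 of 55 with no minimum (15.3%), 12 of 28 at 1.5-fold (10.6%), where 4 were higher (4.02%), and 3 of 23 with nuclei gated one by one (3.23%), where 1 (Col23a1) was higher (1.09%). At 1.5-fold, 7 of 53 chains were lower and 5 higher over the whole library, against 5.81% and 5.26% of all genes. With median-of-ratios scaling, Col25a1 and Col6a1 were no longer called in the granule lineage, which left 5 chains. Without doublet removal, Col13a1 was also called lower over the whole library and Col6a1 was not in the granule lineage. Leaving out the gated or the low-depth nuclei, chosen after seeing the data, kept the whole-library calls. Neither set of nuclei is part of the granule lineage, so its calls could not change. Among the 42 named genes, recomputed with median-of-ratios scaling, without nuclei under 1000 genes, without doublet removal and without the gated nuclei, but not thinned, 167 whole-library ratios stayed within their interval and 1 did not, Col1a1 without the gated nuclei at 0.680 in place of 0.993. Depth limits the cKO-labelled GNP-like nuclei, where 301 UMIs of all 55 genes were counted.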

Other observations

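Nuclei that no class name covered also expressed these genes. A cluster led by Pax3 (98 and 251 nuclei) had 203 and 172 CPM of Col11a1. A cluster led by Cntn5 and Zfhx3 (54 and 100 nuclei) had the highest Col11a1 level of any cluster or class outside the gated nuclei, at 354 and 358 CPM. Of the gated vascular nuclei, 4 control endothelial-like nuclei held 17 Col4a1, 11 Col4a2 and 6 Col18a1 UMIs, and 2 mural-like nuclei of the library labelled cKO held 16 Col4a1 UMIs. With so few nuclei, vascular and meningeal levels could not be compared between the libraries.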
